A study of Mus musculus with 6 samples.

Results

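The uroplakin genes are 6 of the 20896 genes in the deposited read table of this series, taken by gene symbol: Upk1a, Upk1b, Upk2, Upk3a, Upk3b and Upk3bl. All 6 were among the 16683 genes that passed the filter on low reads. The family was chosen with the difference between PKA dKO and control clones already known, because Upk1a and Upk3b had passed the threshold there. That difference is therefore given for the members as a description, with intervals and without p-values; where a member is said to pass the threshold, this repeats what chose it.

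The data are RNA sequencing of clonal lines of mpkCCD, an immortalised cell line from mouse kidney cortical collecting duct. The PKA dKO group held 3 clones that carry the label PKA dKO, a double knockout of protein kinase A (PKA), the kinase activated by cyclic AMP, and the control group held 3 clones of the same parent line, each clone with 1 library. Which genes were edited, how the controls were made, and any transgene are not named in the labels. Clones of both groups grew for 4 days on permeable supports in supplemented medium with 2% serum. They were then kept without serum or hormones for 3 days in 0.1 nM dDAVP, an analog of vasopressin that acts on its V2 receptor. No clone without dDAVP was analysed here, and the separate effect of a clone cannot be told apart from that of its library or culture.

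Uroplakins are membrane proteins of the urothelium, the lining of the bladder, ureter and renal pelvis. There the tetraspanins uroplakin 1a and 1b pair with the single-pass proteins uroplakin 2 and 3a, leave the endoplasmic reticulum as these pairs and form the rigid plaques that make the apical membrane of superficial cells a barrier to water and solutes. Uroplakin 3b is a relative of 3a that can also pair with uroplakin 1b, and uroplakin 1a is the bladder receptor for the FimH adhesin of uropathogenic Escherichia coli. The collecting duct and the lining of the renal pelvis both derive from the ureteric bud.

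Recovered reads per library numbered 30541578 to 38760162 in PKA dKO clones and 28596444 to 42515838 in control clones. PKA dKO clone 3 and control clone 1 differed from the rest: 2363 and 2443 listed genes were without a read there, against 863 to 1045 in the other 4 libraries, and both lay at the other end of the first principal component, which held 68.1% of the variance. Prkaca, the gene of the PKA catalytic subunit alpha, had 6.65, 8.49 and 7.44 CPM (recovered reads scaled to a common library size) in the PKA dKO clones, against 133, 75.8 and 90.6 CPM in the control clones (log2 fold change -3.69; limma adjusted p = 1.59e-05). Prkacb, of the beta subunit, had 99.1, 105 and 105 CPM in PKA dKO clones and 138, 109 and 117 CPM in control clones (log2 fold change -0.23; limma adjusted p = 0.939). Of the collecting duct principal-cell markers Aqp2 was present in control clones, at 2.65 ± 0.78 CPM in PKA dKO clones and 232 ± 145 CPM in control clones (SD, n = 3 each). Aqp3, the basolateral water channel of those cells, was at 1.69 ± 0.15 CPM in PKA dKO clones and 1.48 ± 0.11 CPM in control clones. The markers Scnn1b, Elf5 and Kcnj1 were low in both groups too. Others were abundant, among them Cdh16, at 1385 ± 238 CPM in PKA dKO clones and 1687 ± 487 CPM in control clones. Scnn1a was at 330.5 ± 30.2 CPM in PKA dKO clones and 329 ± 64.0 CPM in control clones.

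Per transcript length, 3 of the uroplakin genes were abundant in these kidney cells and 3 were scarce. In PKA dKO clones Upk3bl stood at 34.7 ± 15.9, Upk1a at 34.0 ± 4.02 and Upk3b at 25.3 ± 2.84 CPM per kilobase. Upk2 was at 1.35 ± 0.16, Upk3a at 1.04 ± 0.51 and Upk1b at 0.84 ± 0.33 CPM per kilobase there. In control clones Upk1a stood at 85.3 ± 8.29 CPM per kilobase, above 95.7% of all genes tested. Upk3bl followed at 57.4 ± 10.5 and Upk3b at 54.0 ± 9.17 CPM per kilobase, which lay within each other's spread. Upk2 came next at 3.20 ± 0.39, then Upk1b at 1.82 ± 1.23 and Upk3a at 1.20 ± 0.96 CPM per kilobase, and Upk1b and Upk3a again lay within each other's spread (SD, n = 3 each throughout).

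The members that build the classical urothelial plaque were thus expressed unequally. Upk1a exceeded its tetraspanin relative Upk1b by 29.8 to 85.2 times per kilobase in PKA dKO clones and 28.9 to 132 times in control clones. Upk1a exceeded Upk2, whose product is its partner in the bladder, by 21.8 to 27.7 times in PKA dKO clones and 21.6 to 32.8 times in control clones. The summed level of the 6 members was 111, 96.5 and 84.0 CPM per kilobase in PKA dKO clones 1, 2 and 3, against 203, 220 and 186 CPM per kilobase in control clones 1, 2 and 3. Of that sum Upk1a made up 27.8% to 39.9% in PKA dKO clones and 37.3% to 48.5% in control clones, and Upk3b 23.1% to 33.2% in PKA dKO clones and 24.2% to 31.2% in control clones. Upk3bl made up 23.6% to 46.3% in PKA dKO clones and 25.1% to 30.7% in control clones.

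The scarce members had 23 to 167 reads in a library. Olfactory and vomeronasal receptor genes, which belong to sensory neurons, give a level for comparison: the 99th percentile of their 1351 transcripts ran from 0.274 to 0.890 CPM per kilobase over the 6 libraries. This percentile was highest in control clone 2 (0.890) and lowest in control clone 1 (0.274), with 0.288 in PKA dKO clone 3. Upk2 lay above it in all 6 clones. Upk3a lay below it in PKA dKO clone 1 (0.524 against 0.629 CPM per kilobase), and Upk1b lay below it in PKA dKO clone 2 (0.452 against 0.657 CPM per kilobase). Upk1b and Upk3a were each highest in control clone 2 (3.12 and 2.31 CPM per kilobase), and Upk2 in control clone 1 (3.50 CPM per kilobase). The part of the receptor level of a library in these values was not tested.

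**Figure D1:**
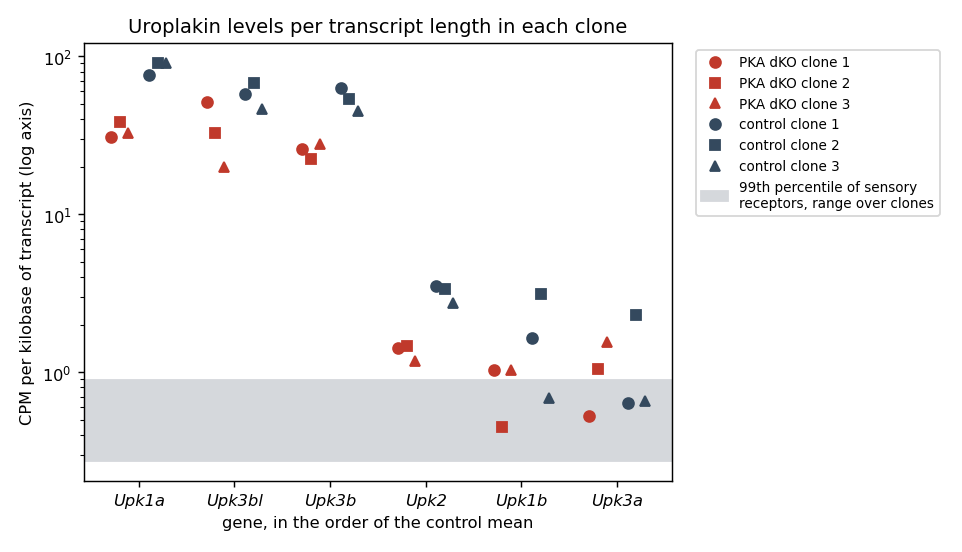
Level of each uroplakin gene in each clone, in CPM per kilobase of transcript on a log axis, with PKA dKO clones in red left of control clones in dark blue. The grey band spans the 99th percentile of sensory receptor transcripts over the 6 libraries, 0.274 to 0.890. Upk1a, Upk3bl and Upk3b lie above 19 in every clone, and Upk2, Upk1b and Upk3a lie below 4.

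Of the 6 members, 2 (Upk1a and Upk3b) were among the genes past the threshold between PKA dKO and control clones, an adjusted p under 0.05 in limma-trend, both lower. Over all genes tested 28 passed (0.168%), of which 19 were lower in PKA dKO clones (0.114% of those tested) and 9 higher (0.0539%). The values of the PKA dKO and control clones did not overlap for 3 members, Upk1a, Upk2 and Upk3b, again all lower, beside 5.67% of all genes lower and 5.15% higher without overlap (10.8% in either direction). Because this difference chose the family, nothing is read from these counts. The authors' deposited table holds 3 members, of which Upk1a and Upk3b had a false discovery rate under 0.05, beside 3.47% of its 10190 transcripts in either direction and 2.49% lower. All 6 log2 fold changes were negative, with a median of -1.01, beside 50.2% of all genes and a median of -0.0015 over all genes tested. In bulk RNA, fewer cells that express a gene and less RNA of it per cell cannot be told apart.

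**Figure D2:**
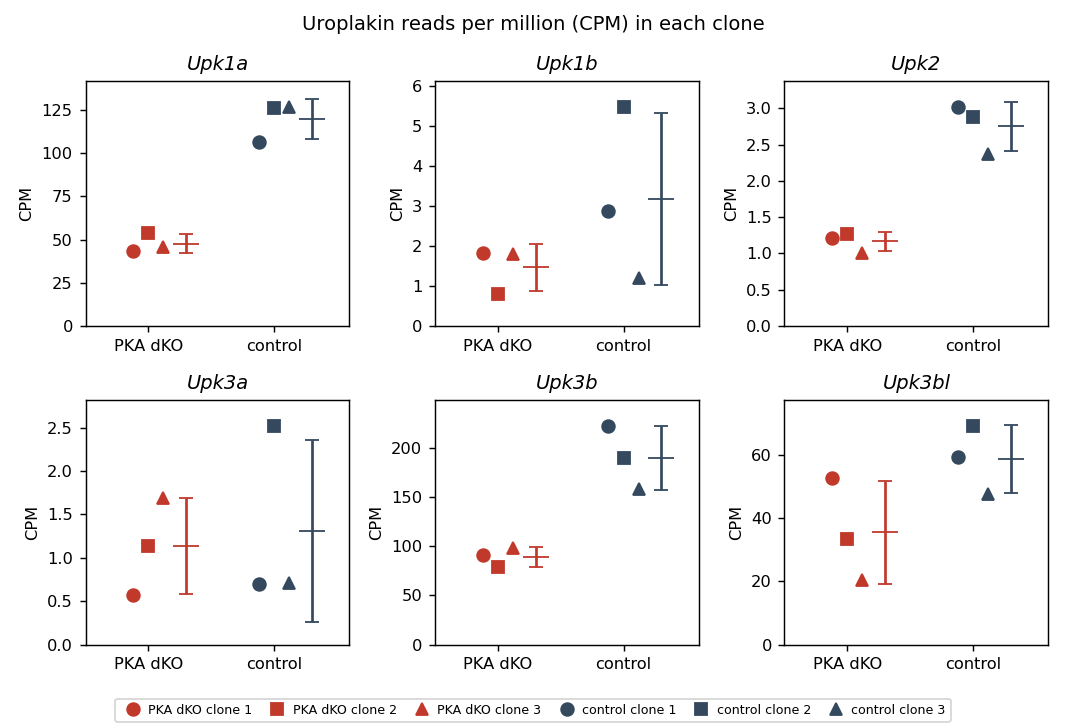
CPM of each uroplakin gene in each clone, with PKA dKO clones left of control clones; bars give the mean and SD over 3 clones, and each panel has its own axis from 0. The clones of the groups do not overlap for Upk1a, Upk2 and Upk3b, and they overlap for Upk1b, Upk3a and Upk3bl.

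Upk1a encodes the tetraspanin uroplakin 1a. The gene (ENSMUSG00000006313.5, transcript ENSMUST00000006476.5) lies on GRCm38 chromosome 7, 30603092 to 30612847, minus strand, and its annotated transcript has 8 exons that encode 257 amino acids. It had 43.4, 54.1 and 45.6 CPM in PKA dKO clones 1, 2 and 3, against 106, 126 and 127 CPM in control clones 1, 2 and 3. Every PKA dKO clone was thus below every control clone, and the SD was 11.8% of the mean in PKA dKO clones and 9.72% in control clones. Mean levels were 47.7 ± 5.64 CPM in PKA dKO clones and 120 ± 11.6 CPM in control clones, 2.51-fold lower (95% interval 2.04 to 3.09). The log2 fold change was -1.33 (SE 0.14), -1.36 within the 4 libraries other than PKA dKO clone 3 and control clone 1, and -1.22 between these 2 libraries themselves. In the authors' deposited table the log2 fold change of Upk1a was -1.35.

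Upk2 encodes uroplakin 2, the bladder partner of uroplakin 1a. It (ENSMUSG00000041523.3, transcript ENSMUST00000047740.2) lies on chromosome 9, 44452716 to 44454767, minus strand, with 5 exons that encode 184 amino acids. It had 1.22, 1.27 and 1.01 CPM in PKA dKO clones, against 3.02, 2.88 and 2.37 CPM in control clones, so the groups did not overlap. These values rest on 49, 40 and 36 reads in PKA dKO clones and 109, 88 and 103 reads in control clones. The log2 fold change was -1.20 (SE 0.37; 95% interval -2.01 to -0.39), which did not pass the threshold. It was -1.02 within the 4 libraries and -1.53 between PKA dKO clone 3 and control clone 1. By the fitted fold change, Upk2 in PKA dKO clones was at 43.5% of its control level and Upk1a at 39.8%.

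Upk1b encodes uroplakin 1b, the other tetraspanin of the plaque. It (ENSMUSG00000049436.5, transcript ENSMUST00000057767.4) lies on chromosome 16, 38773184 to 38800203, minus strand, with 8 exons that encode 260 amino acids. It had 1.82, 0.79 and 1.80 CPM in PKA dKO clones, against 2.88, 5.47 and 1.20 CPM in control clones. Control clone 3 lay below PKA dKO clones 1 and 3, and the control SD was 67.6% of the mean. The log2 fold change was -0.93 (SE 0.56; 95% interval -2.16 to 0.30), -0.42 without control clone 2, its highest clone, and -1.49 without control clone 3, its lowest.

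Upk3a encodes uroplakin 3a, the bladder partner of uroplakin 1b. It (ENSMUSG00000022435.6, transcript ENSMUST00000023070.5) lies on chromosome 15, 85017141 to 85022560, plus strand, with 6 exons that encode 287 amino acids. It had 0.57, 1.14 and 1.68 CPM in PKA dKO clones, against 0.69, 2.52 and 0.71 CPM in control clones, from 23, 36 and 60 reads in PKA dKO clones and 25, 77 and 31 reads in control clones. Control clone 2 was the highest of the 6 clones, and the other control clones lay within the range of the PKA dKO clones. The log2 fold change was -0.06 (SE 0.63), with a 95% interval of -1.45 to 1.33 that holds the log2 fold changes of the other 5 members. It was 0.53 without control clone 2, 0.34 without PKA dKO clone 1, -0.68 within the 4 libraries and 1.22 between PKA dKO clone 3 and control clone 1.

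Upk3b encodes uroplakin 3b, which is also a marker of mesothelium. It (ENSMUSG00000042985.7, transcript ENSMUST00000062606.7) lies on chromosome 5, 136038496 to 136046487, plus strand, with 6 exons that encode 276 amino acids. It had 90.8, 78.4 and 98.2 CPM in PKA dKO clones, against 222.5, 189 and 158 CPM in control clones, so every PKA dKO clone was below every control clone. Mean levels were 89.1 ± 9.99 CPM in PKA dKO clones and 190 ± 32.2 CPM in control clones, 2.12-fold lower (95% interval 1.68 to 2.67). The log2 fold change was -1.08 (SE 0.15), -1.02 within the 4 libraries and -1.18 between PKA dKO clone 3 and control clone 1. Its call was lost without PKA dKO clone 1 (log2 fold change -1.10) and without PKA dKO clone 2 (-0.99). The authors' deposited table gives it a log2 fold change of -1.11.

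Upk3bl, named for its likeness to Upk3b, is the next listed gene downstream on the same strand, 10.8 kilobases away. It (ENSMUSG00000006143.12, transcript ENSMUST00000156530.7) lies on chromosome 5, 136057267 to 136064319, plus strand, with 6 exons, and is 1 of 6 annotated transcripts of its gene. The 884 annotated coding bases of this transcript are not a multiple of 3, so no protein length is given. Values of Upk3bl per kilobase rest on its length of 1023 bases. Upk3bl had 52.6, 33.5 and 20.3 CPM in PKA dKO clones, against 59.4, 69.1 and 47.6 CPM in control clones. PKA dKO clone 1 lay within the control range, with 2114 reads, and PKA dKO clones 2 and 3 lay below every control clone. The SD was 45.9% of the mean in PKA dKO clones and 18.3% in control clones. The log2 fold change was -0.82 (SE 0.28; 95% interval -1.44 to -0.19), which did not pass the threshold. It was -1.15 without PKA dKO clone 1, -0.43 without PKA dKO clone 3, -0.43 within the 4 libraries and -1.55 between PKA dKO clone 3 and control clone 1. In the authors' deposited table the log2 fold change of Upk3bl was -0.74.

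**Figure D3:**
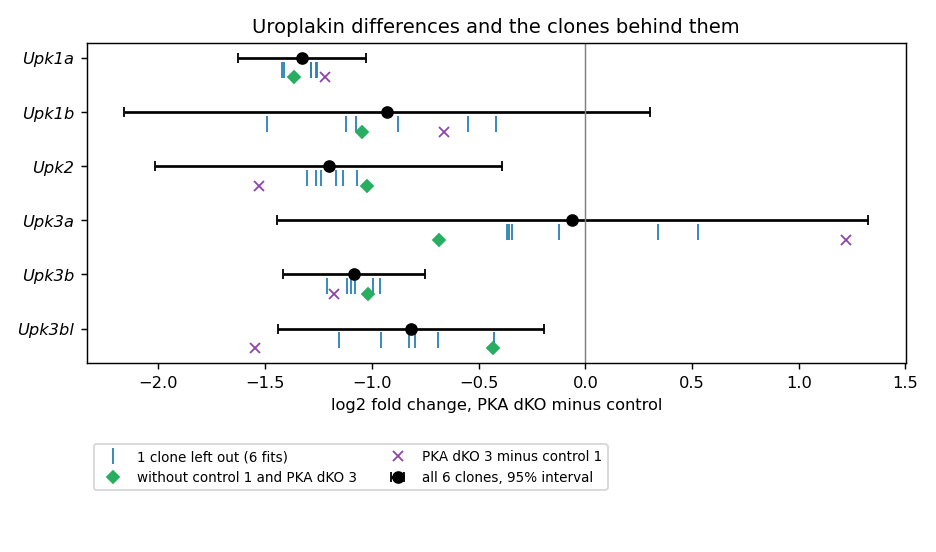
Log2 fold change of each uroplakin gene, PKA dKO minus control: the black point and bar give the fit to all 6 clones with its 95% interval, blue ticks the fits that leave out 1 clone, the green diamond the fit without PKA dKO clone 3 and control clone 1, and the purple cross the difference between those 2 clones. Leaving the 95% intervals aside, the values of Upk1a stay between -1.42 and -1.22, while those of Upk3a run from -0.68 to 1.22.

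The ratio of Upk3b to Upk3bl per kilobase was 0.501, 0.681 and 1.41 in PKA dKO clones 1, 2 and 3, against 1.09, 0.796 and 0.965 in control clones. PKA dKO clone 1 had the lowest and PKA dKO clone 3 the highest ratio of the 6 clones. Between the annotated transcripts of any 2 members the longest identical run was 9 to 14 bases, and for Upk3b and Upk3bl it was 12 bases. No other gene in the GENCODE M21 annotation overlaps the span of any of the 6 transcripts.

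Promoter windows from RefSeq (GRCm38.p6; 250 bases before to 50 after the annotated start) were found for 4 members and are shown because Upk1a, Upk3b and Upk3bl are the abundant members and Upk3a is a scarce one. The windows are Upk1a, chr7:30612685-30612984, minus strand, whose RefSeq start lies 113 bases inside the deposited transcript; Upk3b, chr5:136038246-136038545, plus strand; Upk3bl, chr5:136057017-136057316, plus strand; and Upk3a, chr15:85016891-85017190, plus strand. Capitals mark matches on either strand to any of 8 motifs.
Upk1a: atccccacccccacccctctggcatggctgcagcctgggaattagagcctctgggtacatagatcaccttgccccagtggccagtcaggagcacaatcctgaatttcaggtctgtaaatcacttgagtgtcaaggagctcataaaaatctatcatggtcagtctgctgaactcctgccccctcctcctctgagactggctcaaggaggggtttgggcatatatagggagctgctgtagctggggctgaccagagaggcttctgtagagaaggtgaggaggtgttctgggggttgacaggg
Upk3b: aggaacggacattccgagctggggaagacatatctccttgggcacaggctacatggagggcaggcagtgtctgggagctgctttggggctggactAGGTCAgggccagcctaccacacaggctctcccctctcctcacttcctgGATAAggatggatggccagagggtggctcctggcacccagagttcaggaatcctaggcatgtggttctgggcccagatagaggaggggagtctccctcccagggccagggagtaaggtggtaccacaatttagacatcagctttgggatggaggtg
Upk3bl: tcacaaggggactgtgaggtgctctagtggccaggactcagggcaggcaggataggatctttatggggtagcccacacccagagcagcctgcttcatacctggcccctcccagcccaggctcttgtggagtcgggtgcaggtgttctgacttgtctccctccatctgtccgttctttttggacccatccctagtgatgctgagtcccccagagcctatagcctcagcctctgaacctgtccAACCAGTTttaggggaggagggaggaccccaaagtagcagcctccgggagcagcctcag
Upk3a: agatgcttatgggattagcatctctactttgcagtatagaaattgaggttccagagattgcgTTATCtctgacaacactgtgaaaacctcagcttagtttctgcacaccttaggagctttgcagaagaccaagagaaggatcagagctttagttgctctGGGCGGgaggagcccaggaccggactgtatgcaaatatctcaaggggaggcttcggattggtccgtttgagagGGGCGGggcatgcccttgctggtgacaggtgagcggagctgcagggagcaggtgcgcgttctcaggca
The motifs searched, were the cyclic AMP response element TGACGTCA and its short form TGACG, the AP-1 motif TGANTCA, the Grainyhead motif AACNNGTT, the nuclear receptor element AGGTCA, the GC box GGGCGG, the GATA motif GATAA and the TATA box TATAAA. The long cyclic AMP element contains the short one, so their matches overlap. Neither form of the cyclic AMP response element is in any of the 4 windows, beside 1.79% of 32817 RefSeq windows of this length for TGACGTCA and 20.8% for TGACG. The AP-1 motif (7.81% of all windows) and the TATA box (13.6%) are in none of the 4 either. The Upk3b window holds AGGTCA 155 bases before the start, a motif in 16.3% of all windows, and GATAA 106 bases before it (25.4% of windows). The Upk3bl window holds a Grainyhead match, AACCAGTT, 9 bases before the start (4.20% of windows). The Upk3a window holds the GC box 91 and 18 bases before the start (35.6% of windows) and the GATA motif on the other strand at 188 bases. The Upk1a window holds none of the 8 motifs. These are matches of letters and describe no bound site.

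The 5 listed genes on each side of each member, 50 genes in all with members left out, included 47 that were tested. Their log2 fold changes had a median of -0.03 and ran from -1.03 to 0.79, and none passed the threshold. Both ends of that range were scarce genes. The lowest had 0.25 CPM in PKA dKO clones and 0.65 CPM in control clones. The highest had 0.51 CPM in PKA dKO clones and 0.30 CPM in control clones. Next to Upk1a the 7 tested neighbours lay between -0.32 and 0.01, among them Cox6b1, a subunit of cytochrome c oxidase, at -0.06 with 116 CPM in PKA dKO clones and 120 CPM in control clones. On the Upk3b side of the pair on chromosome 5, Dtx2 had 33.5 CPM in PKA dKO clones and 37.7 CPM in control clones. Polr2j, a subunit of RNA polymerase II beyond Upk3bl, had 52.2 CPM in PKA dKO clones and 54.7 CPM in control clones.

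**Figure D4:**
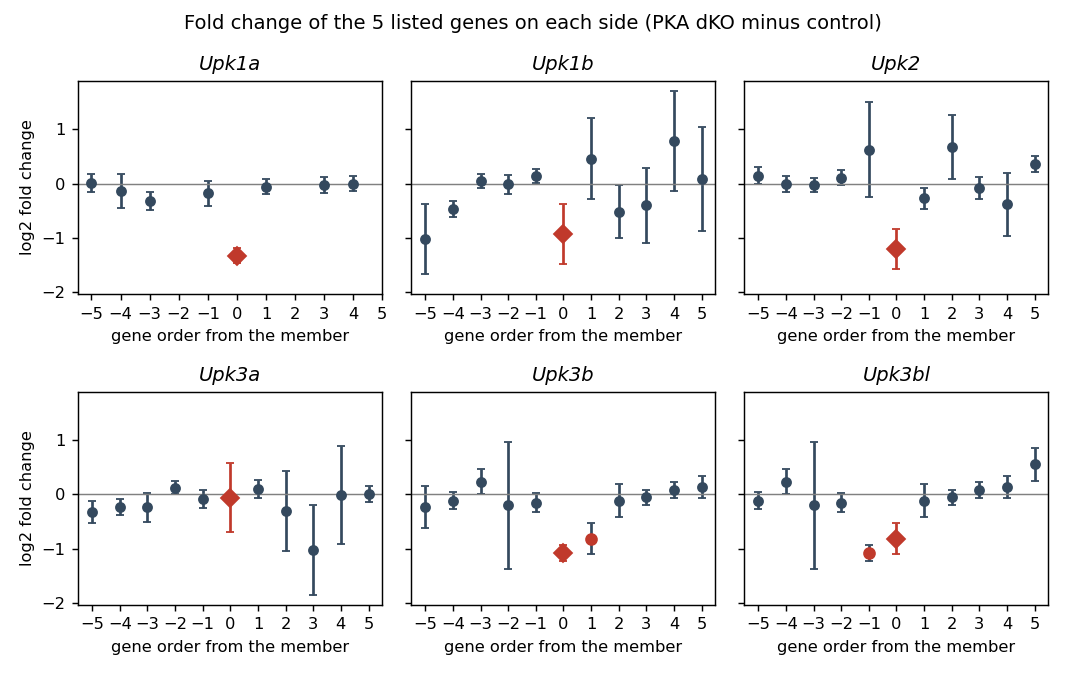
Log2 fold change (PKA dKO minus control, with SE) of each uroplakin gene in red at position 0 and of the tested genes among the 5 listed on each side, by gene order. Upk1a at -1.33 lies below its neighbours, which range from -0.32 to 0.01; the red point beside Upk3b is Upk3bl, and the reverse in the last panel.

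Genes related to uroplakins by family, regulation or transport were read from the same fit over all genes. Of 29 other tetraspanin genes none passed the threshold; 19 had negative and 10 positive log2 fold changes, with a list median of -0.14, beside -0.0015 over all genes tested. An unadjusted p under 0.05 was found for 2 lower and 1 higher of the 29, beside 3.84% lower and 2.4% higher of all genes tested (6.24% in either direction). Tspan14, a regulator of the ADAM10 protease, had 101, 91.8 and 73.1 CPM in PKA dKO clones, against 205, 140 and 136 CPM in control clones (log2 fold change -0.84, SE 0.18; limma adjusted p = 0.139). Cd9, a tetraspanin of membrane microdomains, had 115 ± 17.2 CPM in PKA dKO clones and 161 ± 11.1 CPM in control clones (log2 fold change -0.50; limma adjusted p = 0.332). Tspan3 stood at 0.36 and Cd82 at -0.22 on the log2 fold change scale, with overlapping clones.

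None of 19 transcription factors tied to urothelial differentiation passed, with 13 negative and 6 positive log2 fold changes and a list median of -0.15. An unadjusted p under 0.05 was found for 5 of the 19, all lower, beside 3.84% of all genes. Klf5, a zinc finger factor of epithelia needed for urothelial maturation in mouse, had 46.7, 37.8 and 37.5 CPM in PKA dKO clones, against 77.4, 69.0 and 60.1 CPM in control clones (limma adjusted p = 0.111 for a log2 fold change of -0.76, SE 0.15), without overlap between the groups. Rarg, a retinoic acid receptor, had 125 ± 3.98 CPM in PKA dKO clones and 162 ± 16.0 CPM in control clones (log2 fold change -0.37; limma adjusted p = 0.485). Klf4 stood at 0.91 ± 0.28 CPM in PKA dKO clones and 2.89 ± 1.64 CPM in control clones, and the Grainyhead factor Grhl1 at 20.3 ± 3.63 CPM in PKA dKO clones and 26.9 ± 3.60 CPM in control clones. Pparg and Grhl3, factors that drive superficial-cell genes in mouse bladder, were below 1 CPM on average in both groups, as was Gata6. Other factors of the list were well expressed, among them Ehf, at 453 CPM in PKA dKO clones and 470.5 CPM in control clones. Elf3 averaged 154 CPM in PKA dKO clones and 178 CPM in control clones, and Gata3 101 CPM in PKA dKO clones and 127 CPM in control clones. Klf5 and Tspan14 are both on chromosome 14, over which the median gene deviated by -0.44 (log2) in PKA dKO clone 3 and by 0.28 in control clone 1. Taking out chromosome medians left log2 fold changes of -0.55 for Klf5 and -0.63 for Tspan14. On chromosome 6, where the median gene deviated by -0.40 in PKA dKO clone 3, it left -0.33 for Cd9. On chromosome 15, where it deviated by 0.18 in control clone 2, Rarg was left at -0.24.

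Of 13 genes on a list drawn up for the carrying or sorting of uroplakin vesicles none passed. The list had 9 negative and 4 positive log2 fold changes and a median of -0.18. The role of each listed gene in that transport was not tested. An unadjusted p under 0.05 was found for 2 of the 13, both lower, beside 3.84% of all genes. Rab15, a GTPase of vesicle traffic, had 14.4, 26.4 and 34.9 CPM in PKA dKO clones, against 80.2, 37.0 and 54.1 CPM in control clones (limma adjusted p = 0.299 for a log2 fold change of -1.20, SE 0.32). The groups did not overlap, and PKA dKO clone 3 lay just below control clone 2. Vamp8, a SNARE of apical fusion, had 74.3 ± 8.95 CPM in PKA dKO clones and 98.2 ± 2.92 CPM in control clones (log2 fold change -0.41; limma adjusted p = 0.432), and its log2 fold change was -0.24 with the medians of chromosomes removed. Rab27b and Myo5b, which move vesicles toward the apical membrane, stood at -0.32 and -0.25, and at -0.18 and -0.13 without control clone 1. Mal, a sorting protein that aids uroplakin delivery in mouse urothelium, was abundant in both groups, at 1352 ± 115 CPM in PKA dKO clones and 1262 ± 124 CPM in control clones.

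**Figure D5:**
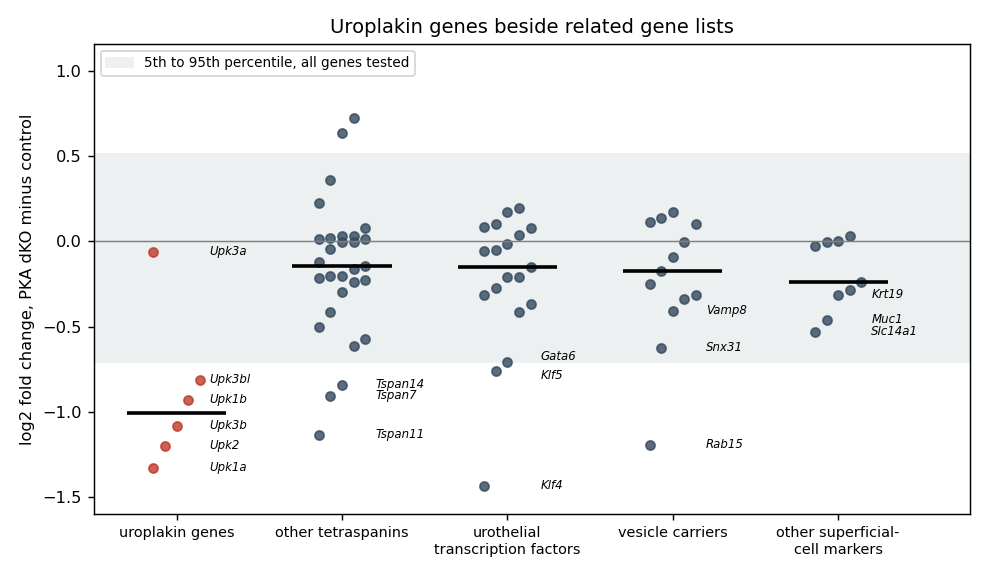
Log2 fold change (PKA dKO minus control) of the 6 uroplakin genes in red and of 4 gene lists in dark blue; black bars are list medians and the grey band spans the 5th to 95th percentile of all genes tested, -0.71 to 0.52. The medians are -1.01 for the uroplakin genes, which were chosen on this difference, and -0.14, -0.15, -0.18 and -0.24 for the other tetraspanins, urothelial transcription factors, vesicle carriers and superficial-cell markers.

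Other markers of superficial urothelial cells were partly present. Krt20, the keratin of those cells, had 219, 209 and 213 CPM in PKA dKO clones, against 200.5, 212 and 228 CPM in control clones, which overlap. Of 9 such markers none passed, 7 were negative and 2 positive (2 of them, both lower, at an unadjusted p under 0.05, beside 3.84% of all genes), the median was -0.24, and their summed level was 3601 to 4214 CPM in PKA dKO clones and 4208 to 4556 CPM in control clones. Most of that sum was Krt8, with a mean of 1027 CPM in PKA dKO clones and 1026 CPM in control clones, and Krt18, with 1661 CPM in PKA dKO clones and 1953 CPM in control clones. Slc14a1 averaged only 0.33 CPM in PKA dKO clones and 0.48 CPM in control clones. The mucin gene Muc1 had 183 ± 16.2 CPM in PKA dKO clones and 252 ± 26.5 CPM in control clones (log2 fold change -0.46; limma adjusted p = 0.364), the keratin genes Krt19 and Krt18 stood at -0.31 and -0.24 (Krt18 at -0.11 with chromosome medians removed), and the surface antigen gene Psca at -0.29. Basal urothelial markers were mostly low, and none of the 7 passed. The basal keratin gene Krt5 averaged 0.80 CPM in PKA dKO clones and 0.75 CPM in control clones, and Krt14 0.46 CPM in PKA dKO clones and 0.59 CPM in control clones. The 7 basal markers summed to 14.8 to 25.7 CPM in PKA dKO clones and 21.2 to 52.0 CPM in control clones, of which Cd44 averaged 13.4 CPM in PKA dKO clones and 25.4 CPM in control clones. Trp63, the gene of the basal-cell factor p63, averaged 2.78 CPM in PKA dKO clones and 2.80 CPM in control clones, and Col17a1, a hemidesmosome collagen gene, 3.52 CPM in PKA dKO clones and 3.94 CPM in control clones. Krt17 and Shh averaged below 1 CPM in both groups.

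Markers of mesothelium, which also expresses uroplakin 3b, and of fibroblasts and principal cells were read in the same way. Of 6 mesothelial markers Msln, the mesothelin gene, carried nearly all the signal, with 317, 192 and 169 CPM in PKA dKO clones, against 463, 362 and 281 CPM in control clones (log2 fold change -0.73; limma adjusted p = 0.471). PKA dKO clone 1 lay within the control range of Msln. The other 5, Wt1, Lrrn4, Calb2, Bnc1 and Gpm6a, averaged between 0.26 and 1.38 CPM in either group. The 5 fibroblast markers analysed summed to 1.15 to 4.62 CPM in PKA dKO clones and 1.44 to 5.86 CPM in control clones; Col3a1, Col1a2, Lum and Dcn each averaged below 1 CPM in both groups. Of 13 principal-cell markers 1, Aqp2, passed and was lower, with 6 negative and 7 positive fold changes and a median of 0.0082. An unadjusted p under 0.05 was found for 4 lower, Aqp2 included, and 1 higher, beside 3.84% lower and 2.4% higher of all genes tested. Aqp4, a basolateral water channel gene, averaged 0.34 CPM in PKA dKO clones and 6.66 CPM in control clones (log2 fold change -3.72; limma adjusted p = 0.128), and Avpr2, the V2 receptor gene, 46.9 CPM in PKA dKO clones and 58.6 CPM in control clones (-0.32; limma adjusted p = 0.695). Tfcp2l1, a collecting duct transcription factor gene, averaged 751 CPM in PKA dKO clones and 528 CPM in control clones (0.53; limma adjusted p = 0.489). These 3 did not overlap between groups. With Aqp2, 3 of the 13 were lower and 1 higher without overlap, beside 5.67% lower and 5.15% higher of all genes tested. Nr3c2, the mineralocorticoid receptor gene, overlapped, at -0.69. The summed mesothelial markers were 171 to 320 CPM in PKA dKO clones and 285 to 465 CPM in control clones, and their part in the values of Upk3b was not tested.

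The genes most like each member over the 6 clones were taken by Pearson's r on the log2 scale among 9594 genes with a mean of at least 5 CPM. With 6 clones in 2 groups these values of r describe the libraries and carry no test. For Upk1a they were Gstt2 (0.99), Pde4b (0.99) and Nadk2 (0.99), and 23 genes exceeded 0.95. For Upk3b they were Klf10, Phf1 and Clic3, at 0.99 to 1.00, with 61 genes above 0.95. The log2 fold changes of these 3 were -0.24, -0.30 and -1.36, against -1.08 for Upk3b, so r did not measure the size of a difference. For Upk2 they were Mettl7a1, Phldb3 and D1Ertd622e, and for Upk3bl Acacb, Zfp746 and Acad10. Upk1b followed Tnfrsf21, Card14 and Plac8 most closely and Upk3a Dixdc1, Slc2a4rg-ps and Gdpgp1, with 5 and 3 genes above 0.95. Among the members themselves r was 0.95 for Upk1a with Upk2, 0.95 for Upk2 with Upk3b and 0.89 for Upk1a with Upk3b. These values hold the difference between groups that chose the family. Once each group's mean was taken out, r was -0.09 for Upk1a with Upk2, 0.26 for Upk2 with Upk3b and -0.82 for Upk1a with Upk3b. Over all pairs of members this r ran from that -0.82 to 0.72, for Upk2 with Upk3bl. Upk3b was highest in control clone 1, where Upk1a was lowest of the control clones. On chromosome 5, which holds Upk3b, the median gene deviated by 0.155, -0.033 and -0.154 (log2) in control clones 1, 2 and 3. The log2 fold change of Upk3b was -1.12 with chromosome medians removed. The part of chromosome 5 in the values of Upk3b was not tested.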

How the data were processed

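Per the labels' protocols, 262 ng of total RNA per clone was cleared of ribosomal RNA, and stranded libraries were made from randomly primed cDNA. The submitters' processing notes list HOMER 4.8, STAR 2.5.2a, edgeR, SAMtools and, as build, GRCm38.p5, without their roles. The handling of strand and of multiply mapping reads is not stated there. The deposited read columns hold a signal: the authors scaled each library to a common total, and division by a step found for each library returned whole reads in 100% of cells (tolerance 0.01 scaled reads). The FPKM columns were deposited by the authors and used for an alternative. The authors' deposited table of edgeR results holds log2 fold changes, p-values and false discovery rates for 10190 transcripts; Upk1b, Upk2 and Upk3a are not among them. Transcript length is as deposited, per the file headers.

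Groups were compared with limma-trend from limma 3.58.1 (R 4.3.3), fitted to log2 scaled reads after division by TMM factors (edgeR 4.0.16), with a pseudocount of 1 scaled read, so folds of low genes are understated. Transcripts passed filterByExpr (minimum 10 reads, total 15), and p-values were adjusted over all 16683 by Benjamini and Hochberg. CPM used recovered reads and TMM-adjusted library sizes. Intervals are 95% intervals of the fit. Replicates are clones with 1 library each, so p-values weigh the groups against the spread between libraries, which may be technical in part; within a group, libraries differed far beyond sampling noise (chi-square per degree of freedom 19.1 to 69.1). Members and lists were chosen with earlier results of these data known. Genes named by rule are the members, Prkaca, Prkacb, any list gene past the threshold and, per list, the 4 with the smallest p. The rule also takes the 3 genes most like each member, predicted models left out. Cox6b1, Dtx2, Polr2j, Mal, Krt20, Pparg, Grhl3, Krt5, Krt14, Trp63, Lrrn4, Bnc1, Avpr2 and Aqp3 were named after their values were seen. Scnn1a, Scnn1b, Cdh16, Elf5, Kcnj1, Ehf, Elf3, Gata3, Gata6, Krt8 and Slc14a1 were likewise named outside that rule, with their values known. Krt7, Rab8a, Rab20, Rab35, Fxyd4 and Col1a1 were on the lists and were not analysed here. Alternatives are in the closing section.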

Additional observations from a re-analysis of the deposited data

How the results depend on the processing

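Over 19 alternatives the log2 fold change of Upk1a ran from -1.42 to -1.26 and passed the threshold in each. Those of Upk2 (-1.30 to -1.02) and Upk1b (-1.49 to -0.42) stayed negative and never passed. Upk3b passed in 16; it did not pass with deposited FPKM (-1.06), without PKA dKO clone 1 or without PKA dKO clone 2. With 1 clone left out it ran from -1.21 to -0.96, and 1 to 2 members passed; with FPKM 1 did. Upk3bl (-1.15 to -0.43) passed only with the replicate block (-0.82). Upk3a changed sign with chromosome medians removed (0.070) and ran from -0.37 to 0.53 with 1 clone left out, so that 5 members instead of 6 were negative with chromosome medians removed, without control clone 2 (0.53) and without PKA dKO clone 1 (0.34).

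The number of genes past the threshold, 28 (19 lower, 9 higher), was 17 without a normalization factor (11 lower), 213 with DESeq2 1.42.0 (152 lower, 61 higher), 91 with FPKM (66, 25), 71 when the split between PKA dKO clone 3 with control clone 1 and the rest entered as a term (51, 20), 595 within the 4 libraries (268, 327), and 21 with chromosome medians removed (5 higher). With 1 clone left out it ran from 11 (without PKA dKO clone 2) to 138 (without control clone 1), with 9 to 56 lower and 2 to 82 higher. The replicate block on clone number gave 196 (136 lower, 60 higher), 3 of them uroplakin genes. Deviations of clones with the same number correlated at -0.36, 0.64 and -0.34, and those of PKA dKO clone 3 and control clone 1 at 0.66. These values hold the split between those 2 libraries and the rest, so they cannot decide whether clone numbers pair the libraries. In lists with no call, 1 member passed under some alternatives: Tspan14 and Klf5 with DESeq2, the block and within the 4 libraries, Rab15 in these and with FPKM, and Msln with the block. Within the 4 libraries Muc1 and Krt19 passed, 2 superficial-cell markers, and 5 principal-cell markers did; Aqp2 and Aqp4 made 2 with DESeq2, FPKM, the block and without control clone 2 (leaving out single clones gave 1 to 2). Psca ran from -0.49 to 0.011 with 1 clone left out, the highest without control clone 2. Within the 4 libraries Cd9 stood at -0.30, Tspan14 at -0.50 and Msln at -0.36; without control clone 2 Tfcp2l1 stood at 0.35, and without control clone 1 Prkacb at -0.13. The cause of these changes was not tested. At 23 to 167 reads, Upk1b, Upk2 and Upk3a are limited by counting error as well as by clones. The level of sensory receptor transcripts also differed between libraries, and its part in the values of these members was not tested.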
